A study of Mus musculus with 40 samples.

Results

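The 10 enzymes described here are Acly, Acaca, Acacb, Fasn, Elovl5, Elovl6, Scd1, Fads1, Fads2 and Gpam, the core of hepatic fatty acid synthesis, elongation and desaturation. They were chosen by name, and all 25 probe sets of the array annotated to 1 of these symbols alone were read. All 10 genes were among the 9695 genes with a probe set past the expression minimum, which was a log2 level of 4 on at least 3 arrays of a group, and 22 of the 25 probe sets passed it. Each gene was read on its lead probe set, the one with the highest mean level among those that passed. Further probe sets are taken up for Acaca, Scd1, Fads1, Elovl6 and Fads2, while those of Acly, Elovl5 and Gpam are not described singly.

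Liver RNA of 40 male C57BL/6J mice, 12 weeks old, was measured on 40 Affymetrix mouse expression arrays, with 4 mice in each of 10 groups. Wild-type (Wt) mice and Nrf2-null mice, which lack the transcription factor encoded by Nfe2l2 in every cell and came from heterozygous parents on a C57BL/6J background, received 1 of 5 treatments by gavage. These were vehicle (Cremophor-EL, DMSO and phosphate-buffered saline), 300 μmol/kg D3T (3H-1,2-dithiole-3-thione, a small sulfur heterocycle), or 3, 10 or 30 μmol/kg CDDO-Im (an imidazolide of a synthetic oleanane triterpenoid). Both compounds activate Nrf2 through its inhibitor Keap1. All mice, controls included, ate a purified AIN-76A diet without ethoxyquin and were treated 3 times over 5 days, and livers were taken 24 h after the last treatment. All values are the GCRMA log2 levels of the study, so that a difference of 1 is a doubling. In whole liver, more cells of a type and more RNA per cell cannot be told apart.

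Fatty acids are made in the liver from carbohydrate. ATP citrate lyase (Acly) cleaves cytosolic citrate to acetyl-CoA, acetyl-CoA carboxylase (Acaca in the cytosol, Acacb at the mitochondrial outer membrane) makes malonyl-CoA from it, and fatty acid synthase (Fasn) joins these units to palmitate. Elovl6 and Elovl5 lengthen fatty acids, stearoyl-CoA desaturase (Scd1) and the front-end desaturases Fads1 and Fads2 introduce double bonds, and Gpam places the first acyl chain on glycerol 3-phosphate. The genes are known as common targets of the sterol-regulated factor SREBP-1c (Srebf1) and, in part, of the carbohydrate-responsive factor ChREBP (Mlxipl), and they are high after feeding and low in fasting.

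Promoter sequences are shown for 4 members because all 10 had positive differences under D3T in Wt liver, and these 4 have windows that end at the start of the annotated gene. RefSeq windows of 250 bases before to 50 bases after an annotated start (GRCm38.p6) were given for 8 of the 10 genes, with 9 windows in all, and those of Fads1 and Scd1 were not analysed here. The 250 bases before the start are printed 5′ to 3′. Capitals mark a CCAAT box (CCAAT), a GC box (GGGCGG) or an E box (CACGTG), read on both strands, so that ATTGG and CCGCCC are the reverse forms.
Elovl6, chr3:129532136-129532385, plus strand: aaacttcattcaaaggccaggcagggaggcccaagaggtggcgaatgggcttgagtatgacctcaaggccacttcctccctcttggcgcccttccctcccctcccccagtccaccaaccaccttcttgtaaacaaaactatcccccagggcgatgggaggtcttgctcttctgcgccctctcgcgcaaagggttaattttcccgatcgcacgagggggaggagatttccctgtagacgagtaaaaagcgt
Acly, chr11:100528001-100528250, minus strand: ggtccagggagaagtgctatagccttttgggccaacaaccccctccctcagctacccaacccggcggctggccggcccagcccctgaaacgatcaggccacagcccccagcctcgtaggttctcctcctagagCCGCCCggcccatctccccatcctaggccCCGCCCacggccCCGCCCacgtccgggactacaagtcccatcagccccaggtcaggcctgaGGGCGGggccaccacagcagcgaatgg
Elovl5, chr9:77917115-77917364, plus strand: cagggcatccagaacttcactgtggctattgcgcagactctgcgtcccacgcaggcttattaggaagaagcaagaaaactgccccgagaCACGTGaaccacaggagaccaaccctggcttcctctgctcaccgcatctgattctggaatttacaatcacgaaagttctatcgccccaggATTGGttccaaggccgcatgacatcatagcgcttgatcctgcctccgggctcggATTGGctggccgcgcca
Fads2, chr19:10101504-10101753, minus strand: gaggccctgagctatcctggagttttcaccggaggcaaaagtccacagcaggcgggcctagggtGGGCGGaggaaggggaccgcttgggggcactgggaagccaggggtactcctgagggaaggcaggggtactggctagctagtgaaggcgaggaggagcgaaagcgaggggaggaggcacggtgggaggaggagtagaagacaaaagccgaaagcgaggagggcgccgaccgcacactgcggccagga
CCAAT lay in a window of 5 of the 8 genes, and in 37.4% of all 32851 windows of the table. The window of Fasn, whose start lies inside the annotated gene, held it 3 times, with an overlapping pair on opposite strands. GGGCGG lay in a window of 3 genes (35.7% of all windows), with 4 copies before the start of Acly, and CACGTG in 1, that of Elovl5 (7.15%). The sterol response element TCACNCCAC (1.24% of all windows) and the antioxidant response element core TGACNNNGC (12.4%) matched in 0 of the 9 windows, which says only that these letters are not in these windows. The window of Elovl6, the member with the largest change under D3T in Wt liver, held none of these motifs.

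The labelled genotype was borne out by its own gene: Nfe2l2 lay between 2.72 and 3.01 in the 4 Nrf2-null mice on vehicle and between 11.07 and 11.73 in the 4 Wt mice. Nqo1, the quinone reductase used as a standard Nrf2 target, was higher in Wt liver by 2.54 with D3T and by 2.31 with 10 μmol/kg CDDO-Im. In Nrf2-null liver its D3T difference of 0.59 did not pass (adjusted p = 0.31), nor did that of 0.26 without D3T replicate 4 (adjusted p = 0.71). The hepatocyte markers Alb, Apoa1 and Ttr lay between 15.87 and 16.46 on every array, and of the 8 adipocyte markers 1 passed the expression minimum, Fabp4, at 8.71 to 10.70. Among the others on the array Lep, Retn and Adig stayed below 2.48, while Cidea reached 5.19 in Wt vehicle replicate 3 and Adipoq 6.67 in Wt vehicle replicate 1. Array medians ran from 7.50 to 7.86. Replicate 4 of Nrf2-null D3T stood apart, with a mean correlation of 0.964 with its group against 0.975 for the next lowest array, so the results of that group are given with and without it.

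Acaca, Elovl6 and Fads2 were higher with D3T than with vehicle in Wt liver. Animal numbers in the labels of D3T mice fall in another range than those of vehicle mice, which cannot be told apart from treatment. The differences of these 3 genes from vehicle were 1.36, 1.84 and 0.97 on the log2 scale, or 2.58, 3.58 and 1.95 in fold. All 10 members had a positive difference, with a median of 0.92 against 0.0022 over all genes. The count of 3 of 10 called higher stands beside 2.3% of all 9695 genes called higher in the same comparison. In 7 of the 10 genes the 4 D3T mice all lay above the 4 vehicle mice, against 8.17% of all genes.

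Acaca, the rate-limiting step of the pathway, had levels of 9.84, 9.73, 9.77 and 9.06 in the D3T mice and of 7.90, 8.44, 7.98 and 8.62 in the vehicle mice. The groups did not overlap, and the difference was 1.36 (standard error 0.22, adjusted p = 0.00041). Elovl6, which lengthens palmitate to stearate, was at 12.77, 12.87, 12.46 and 12.00 with D3T and at 9.96, 11.00, 10.58 and 11.21 with vehicle. Every D3T mouse was above every vehicle mouse, with a difference of 1.84 (standard error 0.36, adjusted p = 0.0029), the largest of the members. Fads2, the first desaturase of the polyunsaturated pathway, was at 12.42, 12.47, 11.81 and 11.53 with D3T and between 10.99 and 11.19 with vehicle. Its difference was 0.97 (standard error 0.24, adjusted p = 0.022), with replicates 1 and 2 of D3T about 1 log2 unit above replicate 4.

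The other 7 members did not pass on their lead probe sets. Fasn was between 13.09 and 13.62 with D3T but spread from 10.85 to 12.82 with vehicle, and its difference of 1.58 had a standard error of 0.47 (adjusted p = 0.059). Acly was at 14.54, 14.30, 14.33 and 14.25 with D3T and between 12.88 and 13.88 with vehicle, a difference of 1.09 (adjusted p = 0.12). Gpam differed by 0.81 (adjusted p = 0.084), Fads1 by 0.59 (adjusted p = 0.17), Elovl5 by 0.60 (adjusted p = 0.14), and Acacb by 0.88 (adjusted p = 0.36). In Fasn, Acly, Gpam and Fads1 the groups nevertheless did not overlap, while in Acacb, Elovl5 and Scd1 the lowest D3T mouse, replicate 4 each time, lay within the vehicle range. Array weights, which gave noisy arrays less influence, raised the count from 3 to 9, and a fit to the 2 groups compared raised it to 7. The share of all genes called in these 2 fits is not given here, so these counts have no background beside them. When the probe sets of a gene were averaged, Elovl6 lost its call (1.35, adjusted p = 0.053) and Fads1 gained one (1.21, adjusted p = 0.026), so the count stayed at 3. Fads2 lost its call with no expression minimum (adjusted p = 0.057) or when D3T replicate 1 or 2, or vehicle replicate 3, was left out, and Fasn gained one without vehicle replicate 4 (1.94, adjusted p = 0.026).

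**Figure D1:**
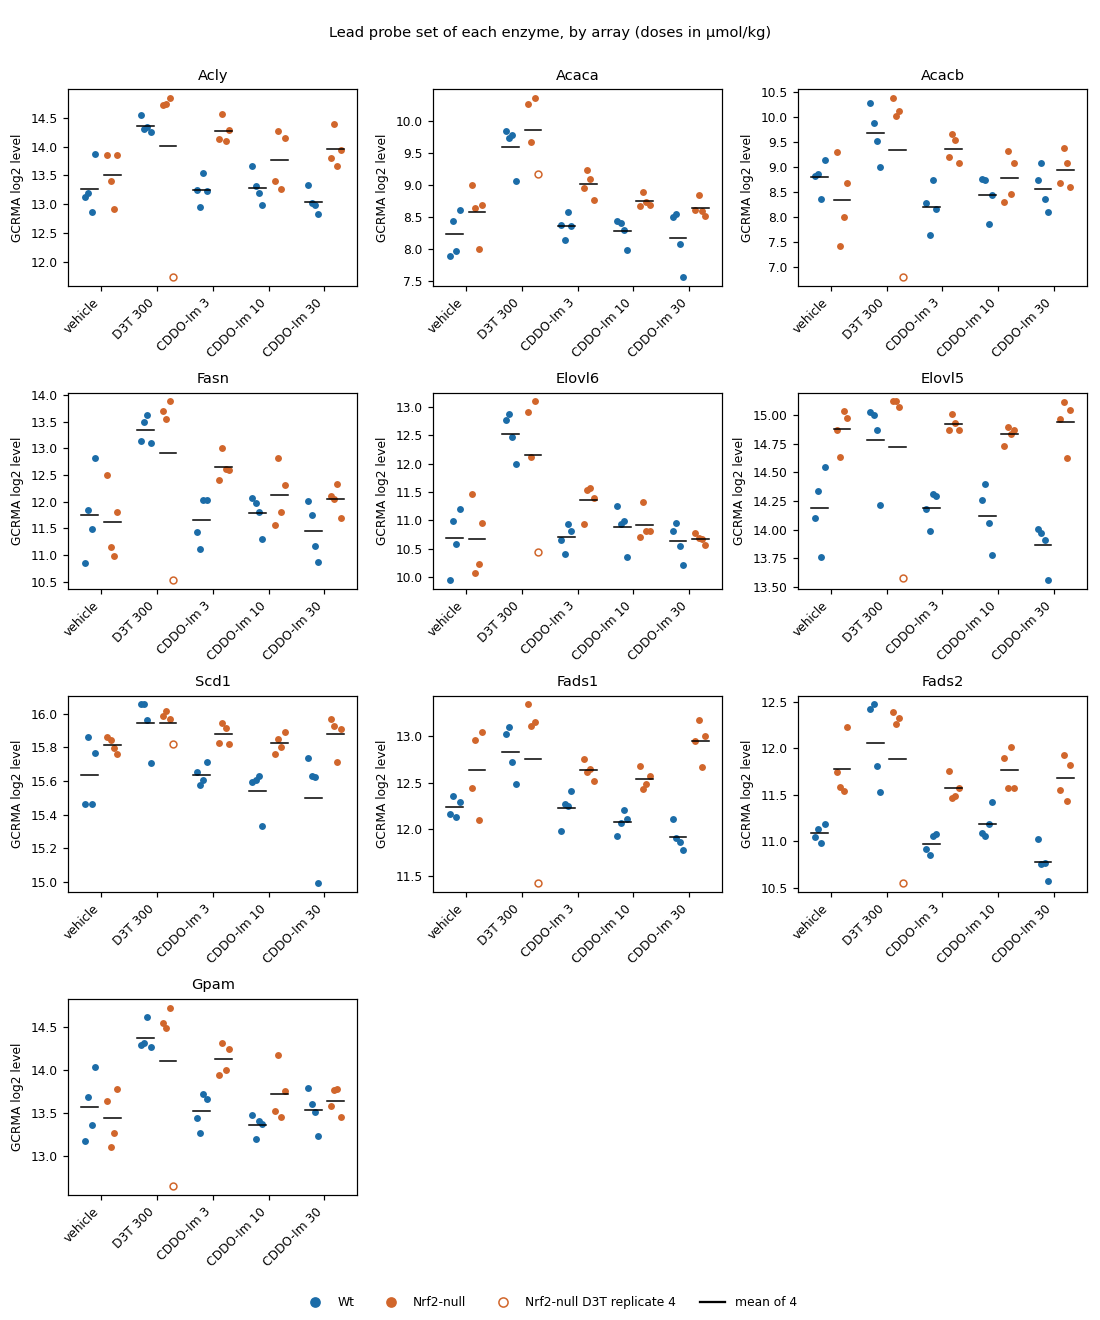
Levels of the 10 enzymes on their lead probe sets (y axis, GCRMA log2 level) in each of the 40 mice, by treatment (x axis) and genotype (blue Wt, orange Nrf2-null), with a bar at each mean of 4. The D3T points of Acaca lie above both vehicle groups, and so do those of Elovl6 except for the open circle, Nrf2-null D3T replicate 4, at 10.45.

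CDDO-Im gave no enzyme call in Wt liver. At 3, 10 and 30 μmol/kg, 0 of 10 members passed the test in limma, with 0 at an unadjusted p under 0.05 as well (10.5%, 31.3% and 35.8% of all genes), and these comparisons share their vehicle mice with each other and with D3T. The share of all genes called was 0.805% at 3 μmol/kg, 17.3% at 10 μmol/kg and 22.3% at 30 μmol/kg. Acaca was at 8.45, 8.40, 8.29 and 7.995 with 10 μmol/kg CDDO-Im, inside the vehicle range, and its difference was 0.05 with a standard error of 0.22. Fasn was at 12.07, 11.97, 11.80 and 11.30 with the same dose, also inside the vehicle range, with a difference of 0.03 (standard error 0.47).

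With 3 μmol/kg the differences of the members ran from −0.59 in Acacb to 0.13 in Acaca, and with 10 μmol/kg from −0.34 in Acacb to 0.20 in Elovl6. With 30 μmol/kg all 10 were below 0, from −0.32 to −0.03, with a median of −0.22, but the median of all genes was −0.16 in that comparison. Fads2 had 1 further probe set at that dose with a called difference, of −0.65 (adjusted p = 0.041), while its lead probe set was at −0.31 (adjusted p = 0.40). An exact Wilcoxon test gave 1 call at this dose, Fads1 (−0.32, unadjusted exact p = 0.029, the smallest that 4 against 4 allow). Only groups that do not overlap reach it, and 24.1% of all genes did not overlap and were lower in this comparison. Between 30 and 10 μmol/kg CDDO-Im, 0 of 10 members passed in limma, against 18.7% of all genes, and 0 had an unadjusted p under 0.05, against 32.2%.

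D3T and CDDO-Im differed from each other in Wt liver. The study took 300 μmol/kg D3T and 10 μmol/kg CDDO-Im as equally effective on known Nrf2 target genes, so the doses differ by design. The dithiolethione ring of D3T and the pentacyclic triterpenoid of CDDO-Im are unrelated structures. With 10 μmol/kg CDDO-Im, 8 of 10 members were lower than with D3T, against 13.7% of all genes called lower, and the median difference was −1.04 against −0.09 over all genes. The 4 CDDO-Im mice all lay below the 4 D3T mice in 9 of 10 members, against 16.2% of all genes. Both comparisons with D3T share its 4 mice.

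With the lower of these doses, Acaca differed by −1.32 (standard error 0.22, adjusted p = 0.00013), Elovl6 by −1.64 (adjusted p = 0.0020), and Fasn by −1.55 (adjusted p = 0.021). Gpam was lower by −1.01, Fads2 by −0.87, Fads1 by −0.75, Elovl5 by −0.66 and Scd1 by −0.40. Acly differed by −1.07 (adjusted p = 0.052) and Acacb by −1.22 (adjusted p = 0.073), and neither passed. With 30 μmol/kg CDDO-Im, 9 of 10 members were lower than with D3T, against 25.4% of all genes, and the 2 groups did not overlap in 8 of 10, against 26.7%. The differences ran from −1.89 in Fasn and Elovl6 to −0.45 in Scd1, whose lead probe set lies near the top of the scale and whose second probe set differed by −1.91, and Acacb did not pass (−1.10, adjusted p = 0.086). The count at 10 μmol/kg was 5 without D3T replicate 1 and 4 without D3T replicate 2, and it was 5 with no expression minimum. With averaged probe sets Elovl6 lost its call at 10 μmol/kg (−0.98, adjusted p = 0.086). With arrays centred on their medians, Elovl5 lost its call at 10 μmol/kg (adjusted p = 0.057), and Scd1 (−0.26, adjusted p = 0.061) and Gpam (−0.65, adjusted p = 0.071) lost theirs at 30 μmol/kg.

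**Figure D2:**
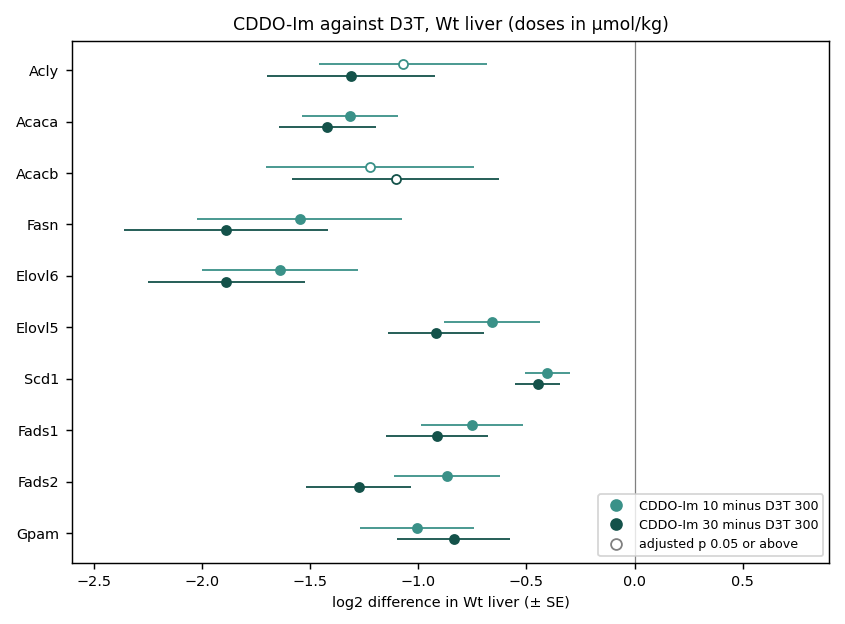
Difference between CDDO-Im and D3T in Wt liver for each enzyme (x axis, log2 difference with its standard error, 4 mice a group), with open circles where the adjusted p was 0.05 or above. All 20 points lie below 0, and 3 of them are open, Acly and Acacb at 10 μmol/kg and Acacb at 30 μmol/kg.

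Clock genes also differed between these groups. With 10 μmol/kg CDDO-Im, 5 of 7 evening genes were higher than with vehicle, against 4.99% of all genes. At that dose 5 of 5 morning genes were lower, against 12.3%. With D3T 1 of 7 evening genes was higher, against 2.3%. The mean level of the 7 measured evening genes (Dbp, Tef, Hlf, Nr1d2, Per1, Per2 and Per3), which peak toward the evening, ran from 6.52 to 6.79 in the Wt vehicle mice, from 7.42 to 8.50 with D3T, from 9.07 to 9.99 with 10 μmol/kg CDDO-Im, and from 6.44 to 6.74 with 30 μmol/kg. The mean of the 5 morning genes (Arntl, Clock, Npas2, Cry1 and Nfil3) was 9.44, 8.33, 6.60 and 8.98 in the same order. The D3T mice lay between vehicle and 10 μmol/kg CDDO-Im on the means of the clock genes. On the mean over the 10 enzymes they lay above both. A clock score, the evening minus the morning mean, was then added to the model, a choice made once the data had been seen. Among Wt mice on vehicle, D3T and 10 μmol/kg CDDO-Im, the groups did not overlap on this score. Clock state and treatment therefore cannot be told apart in these mice by that model. In that model Acaca (1.39, adjusted p = 0.0018), Elovl6 (1.92, adjusted p = 0.0080) and Fads2 (1.07, adjusted p = 0.031) kept their D3T call, and Acly gained one (1.47, adjusted p = 0.048). There, all 10 differences between 10 μmol/kg CDDO-Im and D3T were still below 0, and 2 of 10 were called, Acaca (−1.29, adjusted p = 0.0020) and Elovl6 (−1.54, adjusted p = 0.019). The 6 that lost their call were Fasn at −1.29, Gpam at −0.78, Fads2 at −0.75, Fads1 at −0.49, Elovl5 at −0.44 and Scd1 at −0.35, with adjusted p from 0.057 to 0.27. Against 30 μmol/kg 9 of 10 were called. Animal numbers in the labels of mice given D3T or the highest CDDO-Im dose fall in a range separate from the other groups. In comparisons of either with vehicle or a lower CDDO-Im dose, this range cannot be told apart from treatment. D3T and the highest CDDO-Im dose share it.

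**Figure D3:**
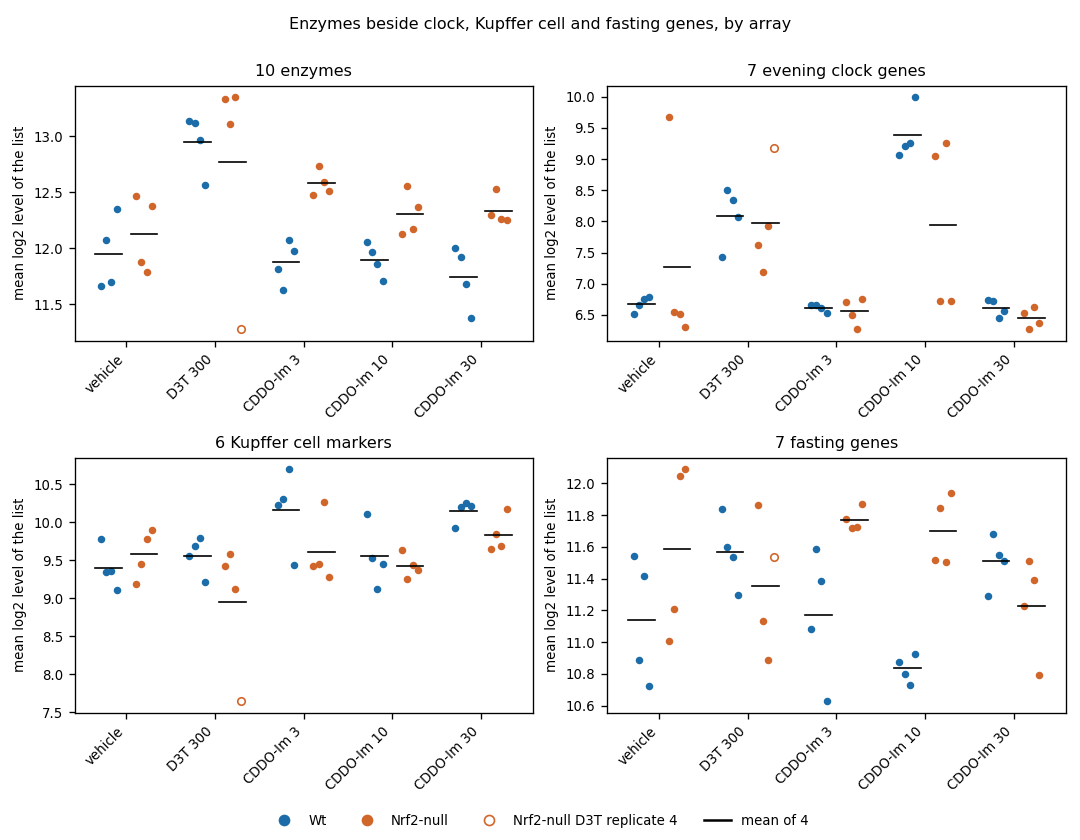
Mean log2 level (y axis) of the 10 enzymes, of 7 evening clock genes, of 6 Kupffer cell markers and of 7 fasting genes in each mouse, by treatment and genotype, with a bar at each mean of 4. The enzyme means are highest with D3T, the evening clock means of Wt liver are highest with 10 μmol/kg CDDO-Im, and the open circle (Nrf2-null D3T replicate 4) is lowest of its group on the enzymes and on the Kupffer cell markers, at 7.64.

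In Nrf2-null liver Acaca and Elovl6 were also higher with D3T than with vehicle. These were 2 of 10 members called higher, against 2.19% of all genes, and 1 of 10, Acaca, had groups that did not overlap, against 2.64%. Acaca was at 10.27, 9.67, 10.35 and 9.17 with D3T and at 9.004, 8.64, 8.002 and 8.70 with vehicle, a difference of 1.28 (standard error 0.22, adjusted p = 0.0013). Elovl6 was at 12.91, 12.12, 13.09 and 10.45 with D3T and between 10.07 and 11.47 with vehicle, a difference of 1.46 (standard error 0.36, adjusted p = 0.020). Its call ended when vehicle replicate 2 or 3 or D3T replicate 1 or 3 was left out, or when probe sets were averaged (adjusted p = 0.072), and neither gene was called in a fit to these 2 groups alone.

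Replicate 4 of this group set the size of most differences. Fasn was at 13.71, 13.55 and 13.88 in replicates 1 to 3 and at 10.54 in replicate 4. Acly was at 14.71, 14.73 and 14.83 and then at 11.75, and Acacb was at 10.38, 10.02 and 10.12 and then at 6.80. In these 3 genes replicate 4 lay below all 4 vehicle mice of its genotype. The same held for Elovl5 (13.58), Fads1 (11.43), Fads2 (10.56) and Gpam (12.66).

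Without replicate 4, the 3 remaining D3T mice lay above all 4 vehicle mice in 10 of 10 members, against 7.09% of all genes, and 7 of 10 were called higher, against 3.66%. Fasn then differed by 2.10 (standard error 0.36, adjusted p = 0.00070), Elovl6 by 2.03, Acacb by 1.83 (adjusted p = 0.0015), Acaca by 1.51, Acly by 1.25 (adjusted p = 0.0016), Gpam by 1.14 and Fads1 by 0.56 (adjusted p = 0.026). Fads2 (0.55, adjusted p = 0.051), Elovl5 (0.23) and Scd1 (0.17) did not pass. The median over the members was 1.19 without replicate 4 and 0.58 with it.

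That mouse also differed in other genes. Its evening clock mean was 9.18, against 7.19 to 7.92 in its group, and its mean over the 6 measured Kupffer cell markers was 7.64 against 9.12 to 9.58, and against 9.19 to 9.90 in Nrf2-null vehicle mice. Over the 4 measured endothelial markers its mean was 7.92 against 9.09 to 9.62. On the mean of the 7 fasting genes it was at 11.53, within the 10.89 to 11.86 of the others, but the single genes went different ways. Pck1, the gluconeogenic enzyme that rises in fasting, was at 15.01 in it against 12.03 to 13.78. Igfbp1 (15.1), Angptl4 (10.215) and Cpt1a (12.85) were also highest of the group in this mouse. G6pc and Ppargc1a lay within the range of the others, while Pdk4 was at 6.41 against 9.04 to 9.74. The part of these genes in its enzyme levels was not tested.

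The response to D3T was not shown to differ by genotype. The difference between the responses (Nrf2-null minus Wt) was called for 0 of 10 members, against 0.0722% of all genes, and 2 of 10 had an unadjusted p under 0.05, against 13.2%. It ran from −0.86 in Fads2 (standard error 0.35) to 0.11 in Acacb (standard error 0.68), and was −0.09 in Acaca (standard error 0.32). Without replicate 4 it was again called for 0 of 10, against 0.433% of all genes, and ran from −0.42 in Fads2 to 0.95 in Acacb, with standard errors from 0.15 to 0.49. With these standard errors, differences of that size went uncalled, so equal responses were not shown.

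CDDO-Im gave 0 of 10 calls at each dose in Nrf2-null liver too, against 1.01%, 0.237% and 0.526% of all genes at 3, 10 and 30 μmol/kg. At 3 μmol/kg 3 of 10 members had an unadjusted p under 0.05, against 14.7% of all genes, and at 10 and 30 μmol/kg 0 had, against 12.8% and 10.1%. At 3 μmol/kg Fasn was at 12.41, 13.00, 12.62 and 12.59 against 12.49, 11.15, 10.98 and 11.81 with vehicle, a difference of 1.05 (standard error 0.47, adjusted p = 0.28). Acacb differed by 1.02 (adjusted p = 0.31), Acly by 0.77 (adjusted p = 0.35), and Gpam by 0.68 (adjusted p = 0.20). In Acly and Gpam, 2 of 10 members, the 4 treated mice all lay above the vehicle mice, against 2.27% of all genes. The genotype difference in the response was called for 0 of 10 members at each dose, against 2.07%, 5.9% and 11.5% of all genes, although array weights called Acacb at 3 μmol/kg (1.72, adjusted p = 0.029).

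**Figure D4:**
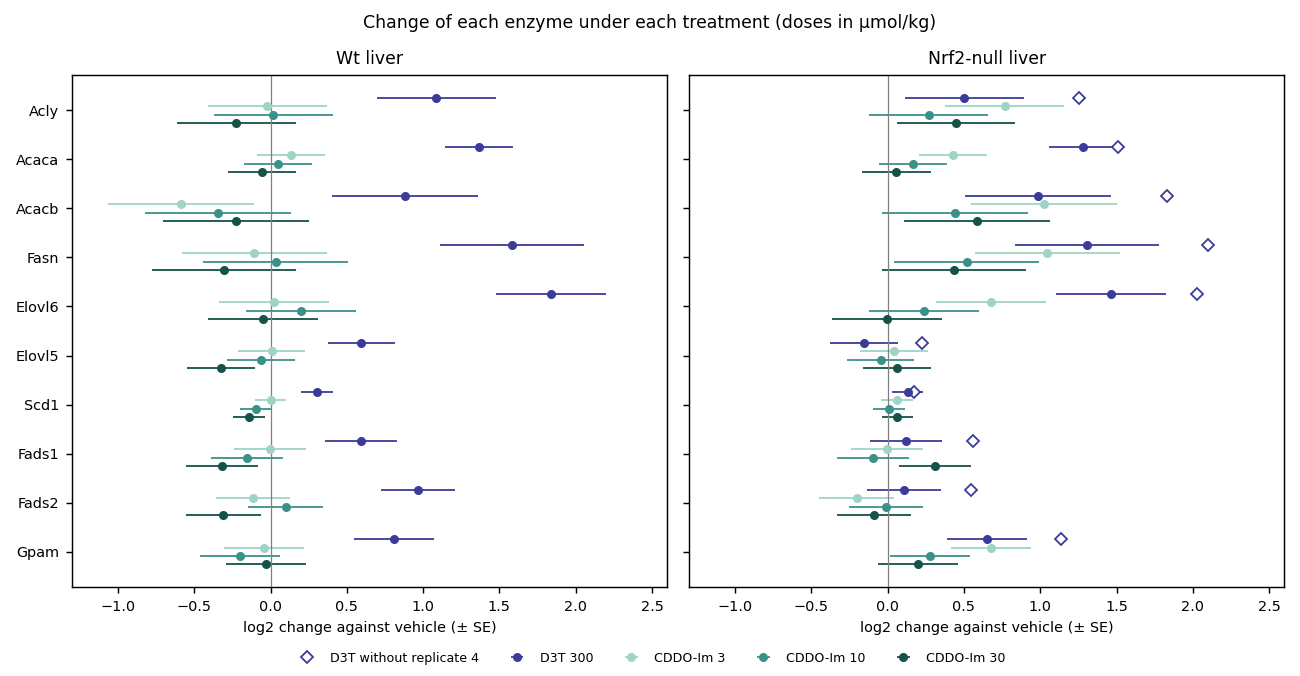
Change of each enzyme against the vehicle mice of its own genotype (x axis, log2 difference with its standard error, 4 mice a group), in Wt liver on the left and Nrf2-null liver on the right, with 1 colour for each treatment. The D3T points of Wt liver lie to the right of all CDDO-Im points, and the open diamonds, D3T in Nrf2-null liver without replicate 4 and drawn without an error bar, reach 2.10 in Fasn.

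With vehicle alone, 1 enzyme, Elovl5, was called higher in Nrf2-null than in Wt liver. Elovl5, an elongase of polyunsaturated fatty acids, was at 14.87, 14.63, 15.04 and 14.98 in Nrf2-null liver and at 14.10, 14.33, 13.76 and 14.55 in Wt liver. The groups did not overlap, and the difference was 0.69 (standard error 0.22, adjusted p = 0.038). This 1 call of 10 stands beside 10.9% of all genes. It ended when any 1 of 6 of the 8 mice was left out, with array centring (adjusted p = 0.053) and with no expression minimum (adjusted p = 0.088). Fads2, at 11.75, 11.58, 11.54 and 12.23 in Nrf2-null liver, also lay above all Wt vehicle mice, with a difference of 0.68 (adjusted p = 0.065). Replicate 1 of Nrf2-null vehicle had an evening clock mean of 9.68 against 6.30 to 6.55 in the others, and its mean over the enzymes, 12.47, was the highest of its group. Replicate 4, with the lowest evening mean, was next at 12.38. With 10 μmol/kg CDDO-Im in Nrf2-null liver, replicates 1 and 3 had evening means of 9.06 and 9.26 and enzyme means of 12.13 and 12.17. Replicates 2 and 4 had evening means of 6.72 and enzyme means of 12.555 and 12.37. The part of clock state in these levels was not tested.

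Ordered by group mean over all 10 groups, Acaca was highest with D3T, at 9.86 ± 0.55 (SD, n = 4) in Nrf2-null and 9.60 ± 0.36 in Wt liver. Without replicate 4 the Nrf2-null D3T mean was 10.09 ± 0.37 (n = 3), and in all 10 enzymes it was then the highest of the 10 groups. Nrf2-null mice on 3, 10 and 30 μmol/kg CDDO-Im and on vehicle came next, at 9.01, 8.75, 8.64 and 8.58, and then Wt mice on 3 and 10 μmol/kg, vehicle and 30 μmol/kg, at 8.37, 8.28, 8.23 and 8.18. With all mice, neighbours in this order lay farther apart than the larger of their SDs only between Wt D3T and Nrf2-null 3 μmol/kg CDDO-Im, and between the latter and Nrf2-null 10 μmol/kg. Fasn ran from 13.33 ± 0.26 in Wt D3T through 12.92 ± 1.59 in Nrf2-null D3T (13.71 ± 0.17 without replicate 4, above Wt D3T) to 11.45 ± 0.52 in Wt 30 μmol/kg CDDO-Im, with no neighbours farther apart than that.

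Elovl5 had another order when all mice were kept. Its 4 highest means were then those of Nrf2-null liver with 30 and 3 μmol/kg CDDO-Im, vehicle and 10 μmol/kg, at 14.94, 14.92, 14.88 and 14.83, followed by Wt D3T at 14.78 ± 0.38 and Nrf2-null D3T at 14.72 ± 0.76, but without replicate 4 the Nrf2-null D3T mean was 15.11 ± 0.028, above them all. The other 4 Wt groups lay between 13.86 and 14.19, again with no neighbours farther apart than the larger SD. Fads1 was likewise highest in Nrf2-null liver with 30 μmol/kg CDDO-Im, at 12.95 ± 0.21, with Wt D3T next at 12.83 ± 0.28, and here too the Nrf2-null D3T mean was higher without replicate 4, at 13.20 ± 0.12.

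The 2 kept probe sets of Acaca gave different answers. The lead ranged from 7.58 to 10.35, whereas the second stayed between 5.5 and 5.7 on 31 of 40 arrays and exceeded 6 on 4. Those 4 were Wt vehicle replicate 4 (6.80), Wt D3T replicate 4 (6.21), Wt 10 μmol/kg CDDO-Im replicate 3 (6.94) and Nrf2-null D3T replicate 3 (6.66). Over the 40 arrays the probe sets correlated with r = 0.19, as a description, while the D3T difference in Wt liver was 1.36 on the lead and −0.05 on the other (adjusted p = 0.95).

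The difference between the Acaca probe sets within an array was compared in 9 comparisons by an exact two-sided permutation test. Between D3T and vehicle in Wt liver it shifted by 1.41 (exact p = 0.029, adjusted over the 9 comparisons 0.086). The second probe set was nearly flat, so this shift largely restates the difference of 1.36 on the lead, and it does not tell a transcript that differs from a probe set with little signal. In Nrf2-null liver the shift with D3T was 1.00 (exact permutation p = 0.029, adjusted 0.086), or 1.13 without replicate 4 (exact p = 0.057, the smallest that 3 against 4 allow), and between 10 μmol/kg CDDO-Im and D3T it was −1.48 (exact p = 0.029, adjusted 0.086). An exact p of 0.029 is the smallest that 4 against 4 allow. In the other 6 comparisons the exact p was between 0.11 and 1.

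Scd1, which makes oleate from stearate, was near the top of the scale on its lead probe set. That probe set had a mean of 15.76, and 27 probe sets of the array had a higher mean, against a highest value of 16.74 in the table. It was at 16.05, 16.05, 15.96 and 15.71 with D3T in Wt liver, and its D3T difference was 0.31 (adjusted p = 0.10), whereas the dimmer second probe set differed by 1.09 (standard error 0.39, adjusted p = 0.12). Over the 40 arrays the lead spanned 1.06 log2 units and the other 4.11, with r = 0.91 between them. Both were lower with 30 μmol/kg CDDO-Im than with D3T, by −0.45 on the lead and by −1.91 on the other (adjusted p = 0.00051). For Fads1, the dim second probe set was higher with D3T in Wt liver by 1.82 (adjusted p = 0.023). The lead did not pass there. The others of Elovl6 and Fads2 that were called moved the same way as their leads. Over the 40 arrays the brighter further probe set of Elovl6 followed its lead closely (r = 0.99), but the dimmer, with a mean of 6.33, did so less (r = 0.525). Its differences are not given here. With the Elovl6 probe sets averaged, the D3T difference in Wt liver was 1.35, against 1.84 on the lead.

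**Figure D5:**
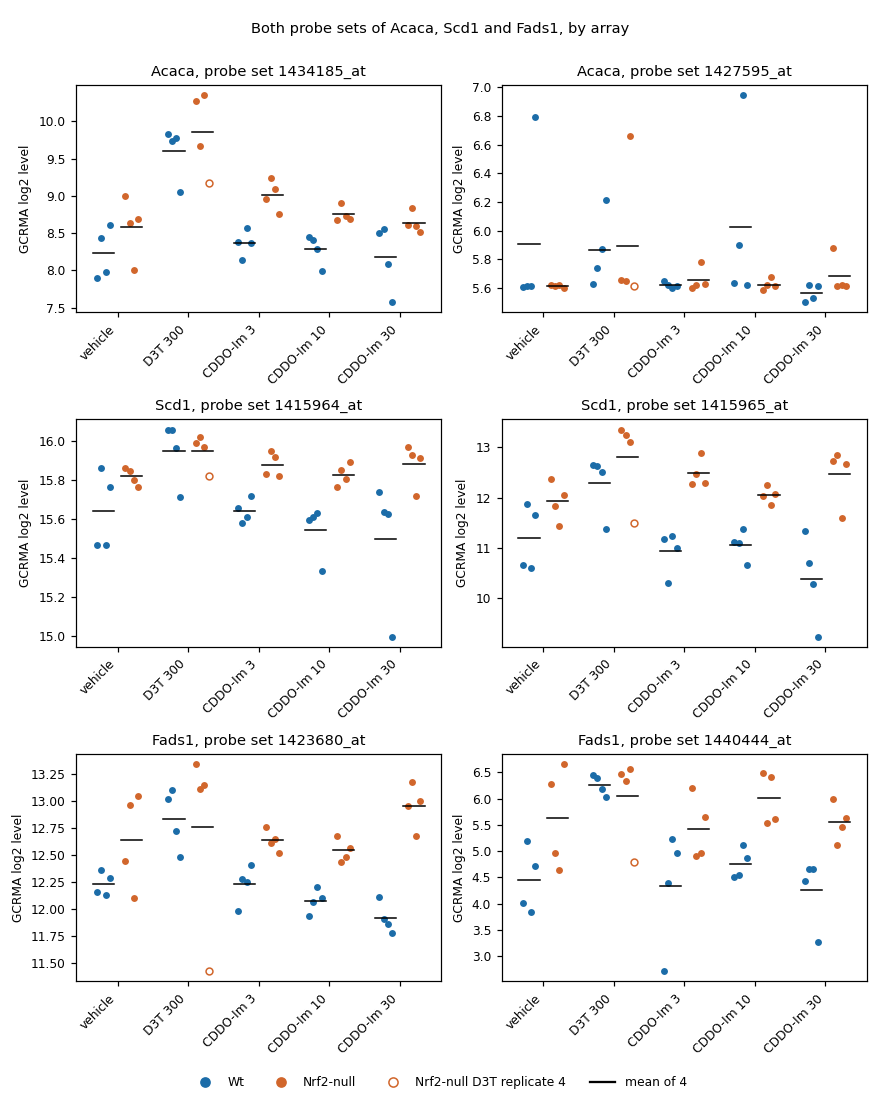
Levels of both kept probe sets of Acaca, Scd1 and Fads1 in each mouse (y axis, GCRMA log2 level, with a scale of its own in each panel), by treatment and genotype, lead on the left and a bar at each mean of 4. The second Acaca probe set lies flat near 5.6 on most arrays, and the second Scd1 probe set spreads over 4.11 units where the lead spreads over 1.06.

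The members varied together across the mice. Over the 40 arrays the 45 pairs of lead probe sets had correlations from 0.52 to 0.95, with a median of 0.73, and within groups, on deviations from group means, the median was 0.71. Without Nrf2-null D3T replicate 4 the within-group median was 0.52, with a lowest pair at 0.07. The arrays share their scaling, so these are descriptions. The genes outside the set whose lead probe sets were most like the mean standardized profile of the members were Acsl5 (r = 0.93), an acyl-CoA synthetase, Chrna4 (0.89), the pyruvate dehydrogenase subunit Dlat (0.89), the pentose phosphate enzyme Rpia (0.87), Ebpl (0.86), Pgrmc2 (0.85), Iqcb1 (0.85) and Rassf6 (0.84). The most opposed were Rab2a (−0.82), the glutathione synthetase Gss (−0.81) and Os9 (−0.76).

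Among the other genes of the pathway, calls depended on the comparison. Of 9 genes listed as regulators, among them the lipase gene Pnpla3, 0 passed with D3T in Wt liver, with a median difference of 0.34. Srebf1 was at 12.27, 13.11, 13.10 and 12.57 with D3T and at 11.85, 12.02, 12.06 and 13.07 with vehicle, a difference of 0.52 (adjusted p = 0.38). Thrsp, a lipogenic gene, differed by 0.85 (adjusted p = 0.48) and the lipase gene Pnpla3 by 0.81 (adjusted p = 0.54). In Nrf2-null liver Pnpla3 was the 1 gene of this list called, against 2.19% of all genes called higher. It was higher with D3T by 3.49 (adjusted p = 0.0013), at 8.59, 7.93 and 8.75 in replicates 1 to 3 and at 3.77 in replicate 4. Without replicate 4, 3 of the 9 listed genes were called higher, against 3.66% of all genes. They were Pnpla3 (4.66, adjusted p = 8.0e-10), Srebf1 (1.14, adjusted p = 0.020) and Insig1 (0.85, adjusted p = 0.0011). With 10 μmol/kg CDDO-Im in Wt liver 1 of 9 fell, against 12.3% of all genes called lower. It was Insig2, which retains the SREBP escort protein in the endoplasmic reticulum, at −1.05 (adjusted p = 0.0054). Mid1ip1 differed by 0.55 (adjusted p = 0.32). With 30 μmol/kg CDDO-Im against vehicle in Wt liver, 3 of 9 fell, against 19.7% of all genes called lower. Mid1ip1 fell by 1.06 (adjusted p = 0.037), Srebf1 by 0.98 (adjusted p = 0.017) and Scap by 0.44 (adjusted p = 0.043). Against D3T at the same dose, Srebf1 was lower by −1.49 (adjusted p = 0.00034), as were Mid1ip1, Scap and Nr1h3. These 4 of 9 stand beside 25.4% of all genes called lower.

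Of the 6 measured genes that supply acetyl groups and NADPH, 1 rose with D3T in Wt liver, against 2.3% of all genes. It was Pgd of the pentose phosphate pathway, by 0.94 (adjusted p = 0.0066), and Acss2 differed by 0.83 (adjusted p = 0.29). In Nrf2-null liver 0 of the 6 passed. Without replicate 4 both Acss2 (0.91, adjusted p = 0.013) and Pgd (0.69, adjusted p = 0.011) did, against 3.66% of all genes called higher. With 10 μmol/kg CDDO-Im 0 of these 6 passed, with Acss2 at 0.44 and the pyruvate kinase Pklr at 0.35. Of 8 other elongation and desaturation genes, 0 passed with D3T, where Elovl3 differed by −1.76 (adjusted p = 0.33) and Tecr by 0.48 (adjusted p = 0.34). With 10 μmol/kg CDDO-Im 1 of the 8 fell, Elovl1, at −0.59 (adjusted p = 0.011), against 12.3% of all genes called lower. Neither Elovl3 (−2.13, adjusted p = 0.11) nor Scd2 (−0.63, adjusted p = 0.39) passed.

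Of 7 measured genes of glycerolipid assembly, Lpin2, a phosphatidate phosphatase, rose with D3T by 0.91 (adjusted p = 0.0038), and Lpin1 differed by 1.14 (adjusted p = 0.20). With 10 μmol/kg CDDO-Im both passed, Lpin1 at 2.55 (adjusted p = 0.00047) and Lpin2 at 1.03 (adjusted p = 0.00030), while Agpat2 fell by 0.73. Of all genes, 2.3% were called higher with D3T. At this CDDO-Im dose 4.99% were called higher and 12.3% lower. Of 6 genes that control acetyl-CoA carboxylase, 0 passed with either treatment, with Mlycd at 0.22 and Prkaa2 at −0.13 under D3T and Prkaa1 at 0.29 and Prkab1 at −0.17 under CDDO-Im. The fasting list had 1 of 7 higher with D3T in Wt liver, against 2.3% of all genes. With 10 μmol/kg CDDO-Im 1 was lower, against 12.3%, and this was Pdk4, lower by −2.90.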

How the data were processed

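Liver RNA of 40 mice was hybridised to 40 arrays, 1 mouse on each. The deposited values are log2 levels that the authors made from the scanned arrays with GCRMA, which corrects background, normalizes between arrays and summarises the probes of a probe set (no version was stated). The table held 45037 probe sets, of which 34945 were annotated to 1 symbol, 932 to several and 9160 to none, and 34741 of the first matched a RefSeq gene (GRCm38.p6). Signal intensities were not used, and the number of arrays, not a read depth, limits the precision.

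Probe sets at a log2 level of at least 4 on 3 or more arrays of any group were kept, which left 18935, and 16472 of these, for 9695 genes, had 1 symbol. Groups and replicate numbers came from the sample labels. One linear model over the 10 groups was fitted in limma 3.58.1 (R 4.3.3, statmod 1.5.0) with trended, robust variances, and p-values were adjusted by the Benjamini-Hochberg method over all kept probe sets. A gene was called at an adjusted p under 0.05 on its lead probe set. Background shares were counted over the lead probe sets of all 9695 genes. The 2 Acaca probe sets were compared by exact permutation tests in SciPy 1.17.1. The fit was tested on simulated data.

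The 10 members were named with values in full. In each pathway list, the 2 measured genes with the largest difference under D3T and under 10 μmol/kg CDDO-Im in Wt liver were named, whether called or not, as were the 8 genes most like the mean standardized profile of the members and the 3 most opposed, and others named were called in a comparison or are regulators, clock, fasting or marker genes of fixed lists. The members and lists were chosen with earlier results of these data known. The replicates are separate mice, and p-values measure the spread between them within 1 experiment.

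Alternatives were another expression minimum or none, array centring, quantile normalization, array weights, averaged probe sets, a fit to the groups compared, exact Wilcoxon tests, a replicate block, leaving out each mouse, and, added once the data had been seen, a clock score and the other Scd1 probe set.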

Additional observations from a re-analysis of the deposited data

Results flagged for a closer look

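Each group of 4 mice was examined for each of the 10 enzymes, and in 12 of these 100 groups the highest or lowest mouse lay farther from the others than Dixon's critical value for 4 samples allows. Chance alone flags about 1 in 20, or 5 of 100. Of the 12, 7 were the same mouse, Nrf2-null D3T replicate 4, which was lowest of its group in Acly (11.75), Acacb (6.80), Fasn (10.54), Elovl5 (13.58), Fads1 (11.43), Fads2 (10.56) and Gpam (12.66). These 7 values come from 1 array and are not independent of each other.

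The other 5 were spread over 5 mice or groups. Acaca was lowest in Wt D3T replicate 4 (9.06) and Gpam highest in Wt D3T replicate 3 (14.62). Scd1 was lowest in replicate 4 of Wt 10 μmol/kg CDDO-Im (15.33) and in replicate 4 of Wt 30 μmol/kg CDDO-Im (14.996), and Elovl6 was highest in Nrf2-null 10 μmol/kg CDDO-Im replicate 2 (11.33). In the main fit, the genotype difference in the response of an enzyme to a treatment passed the threshold in 0 cases, which does not show equal responses.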

How the results depend on the processing

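No called difference changed sign under any alternative, but 224 of 3640 differences that were not called did, with sizes of up to 0.585. The shift between the Acaca probe sets also changed sign when single mice were left out for 10 μmol/kg CDDO-Im in Wt (−0.25 to 0.24) and Nrf2-null liver (−0.04 to 0.29) and for 30 μmol/kg in Nrf2-null liver (−0.21 to 0.13). The D3T count in Wt liver (3) was 9 with array weights, 7 in a fit to the groups compared and 7 by unadjusted exact Wilcoxon tests. In Nrf2-null liver the D3T count (2) was 6 with array weights, 1 with averaged probe sets, 0 in a fit to the groups compared and 1 by exact Wilcoxon tests; without replicate 4 it was 7, and with all 4 replicates 2. The count between genotypes with vehicle (1) was 0 with no expression minimum, 0 with centred arrays, 0 with averaged probe sets, 0 in a fit to the groups compared, 3 with array weights and 2 by exact Wilcoxon tests. In that comparison the groups did not overlap in 12.6% of all genes. For 10 μmol/kg CDDO-Im against D3T (8) it was 5 with no expression minimum and 2 with the clock score. Where 0 were called, 30 μmol/kg CDDO-Im in Wt liver had 2 in a fit to the groups compared and 1 by exact Wilcoxon tests, 3 μmol/kg in Nrf2-null liver 2 by exact Wilcoxon tests, 30 against 10 μmol/kg 1 by either, and the genotype difference at 3 μmol/kg 1 with array weights. Beside these exact Wilcoxon counts, the groups did not overlap in 28.3%, 5.24% and 23.8% of all genes, in the order given. Leaving out each mouse gave 2 to 4 for D3T in Wt liver, 1 to 7 in Nrf2-null liver, 0 to 1 between genotypes, 4 to 9 for 10 μmol/kg CDDO-Im against D3T and 8 to 9 for 30 μmol/kg. The causes of these changes were not tested. Shares of all genes called are not given here for array weights, averaged probe sets, fits to the groups compared, other expression minima or the clock score. Quantile normalization, plain variances, adjustment over genes and the other Scd1 probe set changed no call.

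A replicate block also changed no call, with 3 enzymes called for D3T in Wt liver and 8 for 10 μmol/kg CDDO-Im against D3T. Mice with the same number did not deviate together, with a median correlation of 0.0085 over 180 pairs against −0.0048 over 540 pairs of different numbers, so the numbers do not pair the mice.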
